A study of Drosophila melanogaster with 10 samples.

Results

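The genes described here encode proteins of the mitochondrial ribosome, 43 of its large subunit (symbols beginning mRpL) and 25 of its small subunit (symbols beginning mRpS). The rule that picks them reads gene symbols and mean brightness and no difference between groups, though the gene family was taken up with earlier results of these data known. A probe set counted when it carried 1 such symbol, and the brightest probe set over the 10 arrays stood for its gene. This gave 68 genes of the 12401 genes with a probe set of 1 symbol, and all 68 had a mean log2 level of at least 4 over the 10 arrays, the minimum for testing. The RefSeq table names 73 genes with such symbols. Of the 5 that are not members, mRpS10 and mRpL53 share their probe sets with a second symbol, mRpL47 stands in the array table under another name, and mRpL34 and mRpL37 were not analysed here.

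The samples were cultures of DL1 cells, a cultured line of Drosophila melanogaster in which genes are silenced by adding double-stranded RNA (dsRNA). In nbr RNAi, 5 cultures were bathed in dsRNA to nbr (CG9247), and in control RNAi, 5 cultures were bathed in dsRNA to renilla, which flies do not carry. All were grown at the same temperature and collected 5 days after bathing. The design text calls the replicates independent, each was measured on 1 Affymetrix Drosophila_2 array, and levels are log2 GCRMA values, which make arrays alike in their distribution.

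Mitochondria keep their own ribosomes, which translate the few proteins encoded in mitochondrial DNA, all of them parts of the respiratory chain and ATP synthase in animals. The ribosomal proteins themselves are encoded in the nucleus, made in the cytoplasm and imported. Many descend from proteins of the bacterial ribosome, and others are found in mitochondrial ribosomes and not in bacterial ones. The small subunit decodes the mRNA and the large subunit forms the peptide bonds. Nbr (Nibbler) is an exoribonuclease that trims microRNA ends. The comparison asks which of these genes differ in level when nbr is knocked down.

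The targeted gene was low in every nbr RNAi culture. The nbr probe set (FBgn0032924) read 8.48, 7.56, 8.12, 7.97 and 8.84 in nbr RNAi arrays 1 to 5, against 11.44, 11.48, 11.38, 11.16 and 11.28 in control RNAi arrays 1 to 5. The log2 fold change was -3.16 (95% interval -3.61 to -2.71), and limma's Benjamini-Hochberg adjusted p was 1.46e-04. Between pairs of arrays the correlation across tested probe sets was 0.977 to 0.998. Of 10 plasmatocyte (blood cell) markers 9 passed the minimum level, with summed log2 levels of 96.2 to 99.6 in nbr RNAi and 97.5 to 98.5 in control RNAi. None of the 4 muscle, 3 fat body and 3 germline markers passed it, and of the 4 neuronal markers 1, elav, did. The summed neuronal level was 14.6 to 15.3 in nbr RNAi and 15.0 to 15.4 in control RNAi. These sums include markers under the minimum level. Over the 10 arrays elav averaged 8.70, above Hml (7.26), NimC1 (7.12) and Pxn (5.64). The other plasmatocyte markers that passed ran from 11.43 (vkg) to 14.38 (He). In these bulk cultures, fewer cells that express a gene and less RNA per cell cannot be told apart.

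One small-subunit gene rose in nbr RNAi and the other 67 genes of the mitochondrial ribosome did not pass the test. The gene that rose was mRpS25, at 2.06-fold. It was the only one of the 68 whose groups did not overlap. Over all 7729 probe sets tested 0.97% had such groups, so a count of 1 in 68 is near the background. In both subunits most of the other genes had log2 fold changes slightly below 0, with a median of -0.040 over the 43 large-subunit genes and -0.046 over the 24 small-subunit genes other than mRpS25. Over all 7729 probe sets tested the median was 0.0056. The test was limma with Benjamini-Hochberg adjustment over all 7729, and a call is an adjusted p under 0.05. It called 1 of the 68 members, where the share called among all probe sets was 0.0259% (2 probe sets, nbr and mRpS25).

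**Figure D1:**
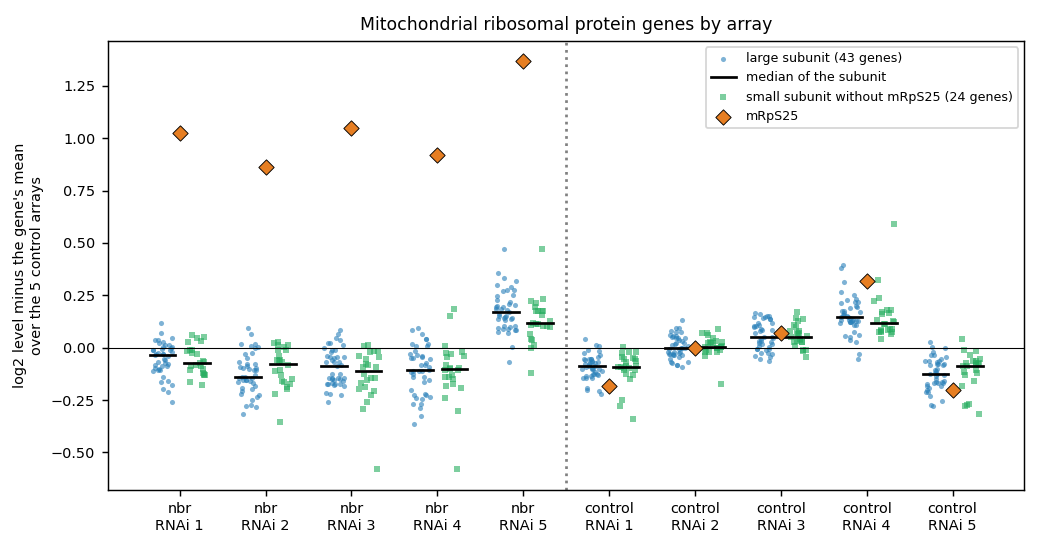
Each point is 1 gene on 1 array, as its log2 level minus that gene's mean over the 5 control RNAi arrays. Arrays of nbr RNAi are on the left and control RNAi on the right. Black bars are the medians of the 43 large-subunit genes and of the 24 small-subunit genes other than mRpS25. In the 5 nbr RNAi arrays mRpS25 (orange) lies far above the rest, and both medians are highest in nbr RNAi array 5 and control RNAi array 4.

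The protein mRpS25 belongs to the small subunit, has no bacterial counterpart, and shares a protein domain with mRpL43 of the large subunit and with a subunit of respiratory complex I. Its probe set (FBgn0030572) read 11.66, 11.50, 11.69, 11.56 and 12.01 in nbr RNAi arrays 1 to 5, against 10.46, 10.64, 10.71, 10.96 and 10.43 in control RNAi arrays 1 to 5. Every nbr RNAi array was above every control RNAi array, and the gap between the lowest nbr RNAi array and the highest control RNAi array was wider than the standard deviation of either group. The means were 11.68 ± 0.20 in nbr RNAi and 10.64 ± 0.21 in control RNAi (SD, n = 5 each). This is a log2 fold change of 1.04 (standard error 0.12, 95% interval 0.78 to 1.31), and limma's adjusted p was 0.0163. It was the highest log2 fold change of the 7729 probe sets tested.

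The size of this difference varied little and its call varied more. With each array left out in turn the log2 fold change stayed between 0.96 and 1.12. Limma kept the call without nbr RNAi array 2 (adjusted p = 0.0335), nbr RNAi array 5 (0.0150) and control RNAi array 4 (0.00763). It lost the call without nbr RNAi array 1 (0.0792), 3 (0.0592) or 4 (0.0519), or control RNAi array 1 (0.0715), 2 (0.0837), 3 (0.0676) or 5 (0.0696). Limma also lost the call when probe sets of low signal were included (adjusted p = 0.0836) and without nbr RNAi array 5 and control RNAi array 3 together (0.0582), as did an unmoderated test of each probe set (0.107). In the authors' deposited table mRpS25 had a q-value of 0%, and the lowest q-value among the other 67 genes was 19.5%. There 0 of these 67 had a p-value under 0.05, and the share of all probe sets under it was not examined. That table rests on the same arrays, so its values are not a separate test of mRpS25.

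Set against its own subunit, mRpS25 stood apart from every other gene. The next highest of the 68 log2 fold changes was that of mRpS35, at 0.14, lower by 0.90. The 95% interval of mRpS25 began at 0.78, and those of all the other 67 genes ended at or below 0.34, the upper end for mRpS35. On each array the level of mRpS25 relative to its control RNAi mean was compared with the median of the other 24 small-subunit genes. The difference was 1.10, 0.94, 1.16, 1.02 and 1.25 in nbr RNAi arrays 1 to 5, against -0.093, -0.0074, 0.020, 0.20 and -0.12 in control RNAi arrays 1 to 5. These groups did not overlap either, and their means were 1.09 ± 0.12 and 0.00028 ± 0.13 (SD, n = 5 each). Against the median of the large-subunit genes the difference was 1.06, 1.00, 1.13, 1.02 and 1.20 in nbr RNAi arrays 1 to 5. In control RNAi arrays 1 to 5 it was -0.095, 0.00070, 0.020, 0.17 and -0.078. Since mRpS25 was singled out with its result known, these differences describe it and carry no test.

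Within each group mRpS25 moved from array to array with the other genes of the mitochondrial ribosome. After group means were taken off, its level and the median of the other small-subunit genes correlated over the 10 arrays with Pearson's r of 0.94 and Spearman's rho of 0.85. Without the 2 arrays farthest from the median, nbr RNAi array 5 and control RNAi array 4, r was 0.80 and rho 0.74 over 8 arrays. These values pool both groups. In nbr RNAi arrays 1 to 4 mRpS25 stood 1.03, 0.86, 1.05 and 0.92 above its control RNAi mean. There the small-subunit median was -0.071, -0.077, -0.11 and -0.10, in a different order, and the large-subunit median -0.037, -0.14, -0.087 and -0.11. The correlation in each group alone was not examined. The within-group standard deviation of mRpS25 was 0.20 alone and 0.12 as a difference from the other small-subunit genes. These genes share the arrays and their normalization, so the correlation is a description only.

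**Figure D2:**
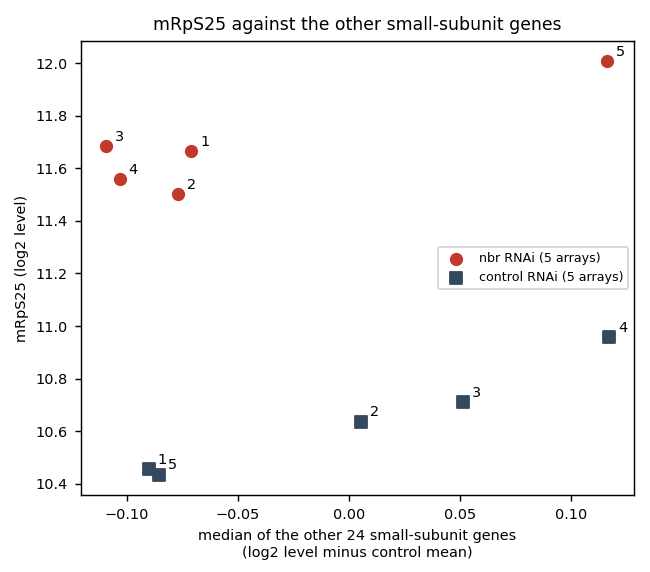
Each point is 1 array, numbered by replicate, with nbr RNAi in red and control RNAi in dark blue. The vertical axis is the log2 level of mRpS25, and the horizontal axis is the median over the other 24 small-subunit genes of the log2 level minus the control RNAi mean. The nbr RNAi arrays lie between 11.50 and 12.01 and the control RNAi arrays between 10.43 and 10.96, and the groups cover similar ranges of the horizontal axis.

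The genes beside mRpS25 on the chromosome did not pass the test. In the RefSeq gene table (assembly Release 6 plus ISO1 MT) mRpS25 lies between CG14414, whose span overlaps that of mRpS25, and nmdyn-D6, of the nucleoside diphosphate kinase family. CG14414 averaged 10.80 ± 0.078 in nbr RNAi and 10.86 ± 0.14 in control RNAi (SD, n = 5 each), a log2 fold change of -0.066 (95% interval -0.22 to 0.088). For nmdyn-D6 the means were 5.25 ± 0.29 in nbr RNAi and 5.25 ± 0.16 in control RNAi, a log2 fold change of -0.0075 (95% interval -0.30 to 0.29). Both intervals end below that of mRpS25. The member that shares a domain with mRpS25, mRpL43, had a log2 fold change of -0.060.

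No other small-subunit gene passed the test, and 0 of the 24 reached an unadjusted limma p under 0.05, against 5.87% of all probe sets tested. Non-overlapping groups were seen in 0 of the 24, against 0.97% of all. The log2 fold change was negative for 20 of the 24 (83.3%), against 47.1% of all probe sets, and ranged from -0.30 for mRpS14 to 0.14 for mRpS35. For 23 of the 24 the 95% interval lay within a 1.5-fold change either way, and mRpS14 was the exception.

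**Figure D3:**
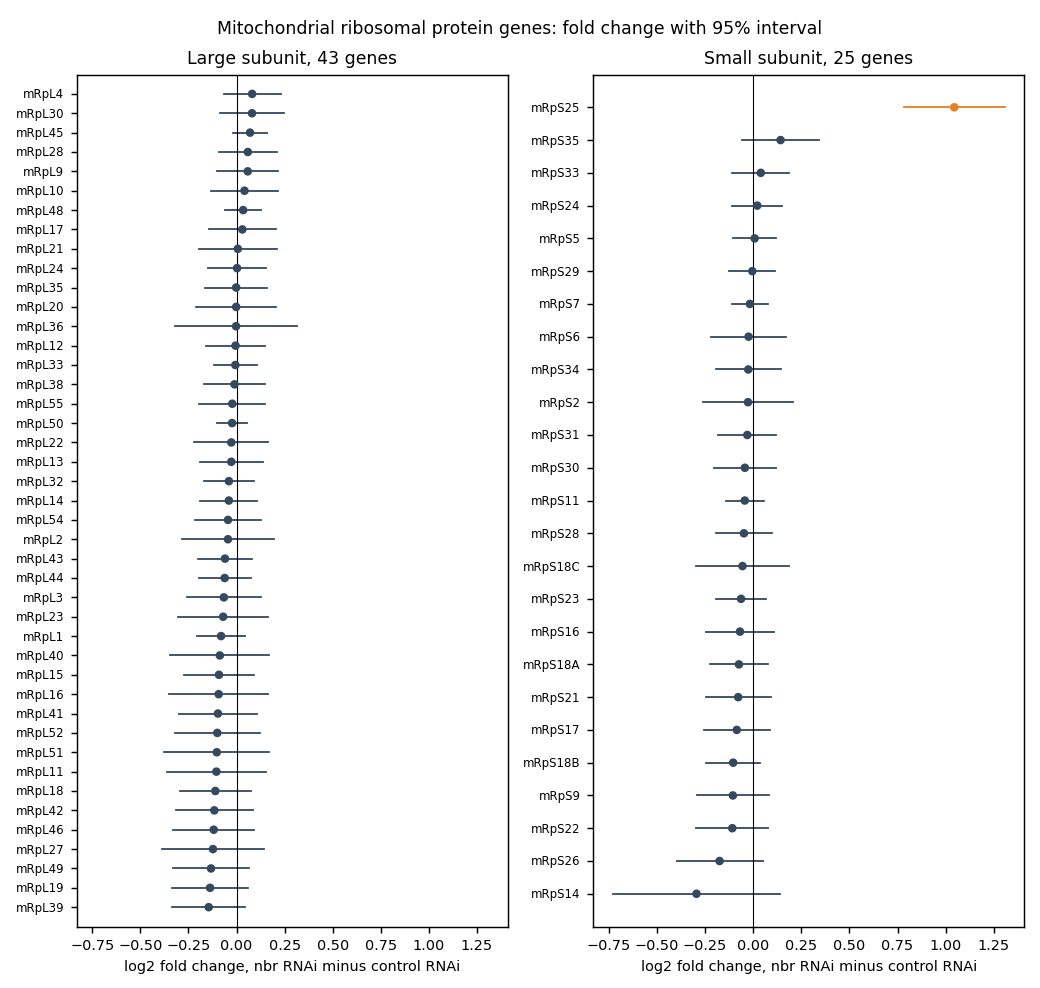
Each point is the log2 fold change of 1 gene, nbr RNAi minus control RNAi, and each line its 95% interval from limma. The 43 large-subunit genes are on the left and the 25 small-subunit genes on the right. The interval of mRpS25 (orange), 0.78 to 1.31, lies to the right of all others.

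The widest interval was that of mRpS14, counterpart of a bacterial protein of the head of the small subunit. It read 7.36, 7.13, 6.90, 6.90 and 7.64 in nbr RNAi arrays 1 to 5, against 7.21, 7.31, 7.62, 8.07 and 7.20 in control RNAi. The groups overlapped, with nbr RNAi array 5 and control RNAi array 4 the highest of their groups, and the 95% interval of its log2 fold change was -0.73 to 0.14. A brighter probe set that carries both mRpS14 and CG32533 gave 0.012 (95% interval -0.24 to 0.26). These intervals overlap, and the difference between the probe sets was not tested.

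The other genes at the low end of the small subunit had differences within the spread of the arrays. The mitochondria-specific protein mRpS26 read 10.99, 10.93, 10.86, 10.85 and 11.26 in nbr RNAi, against 11.13, 11.13, 11.29, 11.33 and 10.88 in control RNAi, a log2 fold change of -0.18. The values of mRpS22, also specific to mitochondria, were 11.74, 11.70, 11.63, 11.59 and 11.94 in nbr RNAi, against 11.76, 11.79, 11.96, 12.00 and 11.65 in control RNAi (log2 fold change -0.11). In both, nbr RNAi array 5 was as high as the upper control RNAi arrays or nearly so. For mRpS9, which has a bacterial counterpart, the levels were 12.16, 12.21, 12.03, 12.07 and 12.10 in nbr RNAi, against 12.17, 12.20, 12.39, 12.40 and 11.95 in control RNAi (log2 fold change -0.11). Here nbr RNAi array 5 was not high, and the spread lay in the control RNAi arrays.

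At the high end, after mRpS25, stood mRpS35, a protein of the mitochondrial small subunit without a bacterial counterpart. It read 9.66, 9.61, 9.61, 9.75 and 10.07 in nbr RNAi, against 9.45, 9.64, 9.58, 9.68 and 9.64 in control RNAi. Its log2 fold change of 0.14 was 0.059 without nbr RNAi array 5, the highest of the 10. The small protein mRpS33 had 11.97, 11.94, 11.90, 11.82 and 12.15 in nbr RNAi, against 11.78, 11.94, 11.94, 12.03 and 11.88 in control RNAi (log2 fold change 0.039). Levels of mRpS24 were 10.30, 10.36, 10.34, 10.23 and 10.53 in nbr RNAi, against 10.34, 10.34, 10.36, 10.41 and 10.23 in control RNAi (log2 fold change 0.021). Both pairs of groups overlapped widely, and without nbr RNAi array 5 the log2 fold changes were -0.010 for mRpS33 and -0.023 for mRpS24.

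By origin, the 15 small-subunit genes with a bacterial counterpart had a median log2 fold change of -0.056, with 13 negative. The 9 mitochondria-specific ones other than mRpS25 had a median of -0.031, with 7 negative. The 3 paralogs of one bacterial protein, mRpS18A, mRpS18B and mRpS18C, gave -0.075, -0.10 and -0.056, and the last was dim, with a mean of 4.99 in nbr RNAi and 5.05 in control RNAi. The mammalian counterparts of mRpS18A and mRpS30 have been placed in the large subunit by structures, in spite of their names, and mRpS30 gave -0.044 here. The second probe set of mRpS11 gave -0.077, beside -0.044 for the brighter one. Among small-subunit genes without an mRpS symbol, bonsai gave -0.10 and tko, the counterpart of the bacterial decoding-centre protein, -0.013. The probe set shared by mRpS10 and CG34316 gave -0.019.

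In the large subunit, 0 of the 43 genes passed the test, against 0.0259% of all probe sets tested. An unadjusted limma p under 0.05 was reached by 0, against 5.87% of all, and 0 had groups that did not overlap, against 0.97% of all, a share at which a count of 0 in 43 is near the background. The log2 fold change was negative for 33 of the 43 (76.7%), against 47.1% of all, and ranged from -0.14 for mRpL39 to 0.081 for mRpL4. For all 43 the 95% interval lay within a 1.5-fold change either way.

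The lowest large-subunit value belonged to mRpL39, a mitochondria-specific protein. Its levels were 11.64, 11.62, 11.67, 11.62 and 11.99 in nbr RNAi, against 11.78, 11.83, 11.99, 11.96 and 11.69 in control RNAi. All nbr RNAi arrays but array 5 lay below all control RNAi arrays and array 5 stood with the highest of these. The counterpart of a bacterial protein at the interface of the subunits, mRpL19, read 11.58, 11.40, 11.47, 11.46 and 11.83 in nbr RNAi, against 11.59, 11.66, 11.77, 11.86 and 11.56 in control RNAi (log2 fold change -0.14). Values of the mitochondria-specific mRpL49 were 12.23, 12.11, 12.15, 11.98 and 12.40 in nbr RNAi, against 12.21, 12.31, 12.33, 12.52 and 12.14 in control RNAi (log2 fold change -0.13). The counterpart of bacterial protein L27, mRpL27, had 10.80, 10.75, 10.63, 10.60 and 11.05 in nbr RNAi, against 10.76, 10.87, 10.86, 11.28 and 10.68 in control RNAi (log2 fold change -0.12). In all of these nbr RNAi array 5 was the highest of its group, and the groups overlapped.

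The highest large-subunit values were smaller still. For mRpL4, which lines the exit tunnel in bacterial ribosomes, the levels were 10.71, 10.68, 10.70, 10.70 and 10.93 in nbr RNAi, against 10.54, 10.63, 10.62, 10.83 and 10.69 in control RNAi (log2 fold change 0.081). Those of mRpL30 were 11.70, 11.67, 11.71, 11.63 and 12.03 in nbr RNAi, against 11.65, 11.63, 11.68, 11.78 and 11.60 in control RNAi (log2 fold change 0.080). Without nbr RNAi array 5 these log2 fold changes were 0.034 and 0.011. The mitochondria-specific mRpL45 read 11.76, 11.74, 11.82, 11.83 and 11.87 in nbr RNAi, against 11.72, 11.81, 11.71, 11.70 and 11.73 in control RNAi. It had a small spread, and its log2 fold change of 0.070 had the lowest unadjusted p of the 67 genes in limma, at 0.110. Levels of mRpL28 were 12.22, 12.29, 12.26, 12.11 and 12.39 in nbr RNAi, against 12.21, 12.16, 12.33, 12.26 and 12.02 in control RNAi (log2 fold change 0.059).

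By origin, the 27 large-subunit genes with a bacterial counterpart had a median log2 fold change of -0.027, with 19 negative, and the 16 mitochondria-specific ones -0.074, with 14 negative. In the stalk, which recruits translation factors, mRpL12 gave -0.0051 and its anchor mRpL10 gave 0.041. The 2 probe sets of mRpL47 gave -0.069 and -0.074, and the set shared by mRpL53 and CG33155 gave -0.099.

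The small negative medians lay within the spread between arrays. Relative to the control RNAi means, the median of the large-subunit genes was -0.037, -0.14, -0.087, -0.11 and 0.17 in nbr RNAi arrays 1 to 5, against -0.088, -0.0025, 0.052, 0.15 and -0.13 in control RNAi arrays 1 to 5. The median of the other small-subunit genes was -0.071, -0.077, -0.11, -0.10 and 0.12 in nbr RNAi, against -0.090, 0.0055, 0.051, 0.12 and -0.085 in control RNAi. In both subunits the groups overlapped, with nbr RNAi array 5 at the level of control RNAi array 4 and control RNAi arrays 1 and 5 among the low nbr RNAi arrays. Over all probe sets tested, the same median was between -0.0040 and 0.065 in nbr RNAi, highest in array 5, and between -0.029 and 0.015 in control RNAi.

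In nbr RNAi array 5, all 43 large-subunit genes exceeded the mean of nbr RNAi arrays 1 to 4, by a median of 0.27, and 41 were the highest of their group. Among the 24 small-subunit genes other than mRpS25, 23 exceeded that mean and 22 were the highest of their group, with a median difference of 0.25 over the 24. Of all 7729 probe sets tested, 4735 were above that mean in that array and 3526 were the highest of their group there. Over all of them that array was higher by a median of 0.066. In control RNAi array 4, 41 large-subunit genes and all 24 small-subunit genes were above the mean of the other control RNAi arrays, by medians of 0.18 and 0.15. So were 4168 of all 7729 probe sets tested, where the median difference was 0.013. For mRpS25 the difference was 0.40 in each of these arrays.

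**Figure D4:**
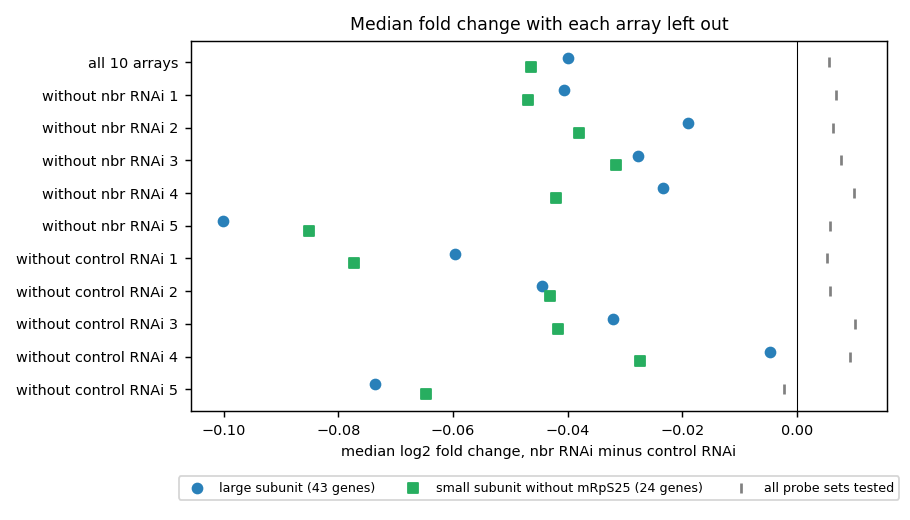
Each row is a fit with 1 array left out, and the top row has all 10 arrays. Points are the median log2 fold change, nbr RNAi minus control RNAi, of the 43 large-subunit genes, of the 24 small-subunit genes other than mRpS25 and of all probe sets tested. The large-subunit median runs from -0.10 without nbr RNAi array 5 to -0.0047 without control RNAi array 4.

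With each array left out, both medians stayed below 0 and their sizes changed. The large-subunit median was -0.10 without nbr RNAi array 5, -0.074 without control RNAi array 5, -0.023 without nbr RNAi array 4, -0.019 without nbr RNAi array 2 and -0.0047 without control RNAi array 4. The small-subunit median was -0.085 without nbr RNAi array 5, -0.077 without control RNAi array 1 and -0.027 without control RNAi array 4. The other fits moved them by less than 1.5 times. The number of negative genes ran from 22 to 37 of 43 in the large subunit and from 14 to 23 of 24 in the small one. Over the 10 fits, 28 of the 43 large-subunit genes kept the sign of their log2 fold change, 22 negative and 6 positive, as did 15 of the 24 small-subunit genes, 14 negative and 1 positive. None of the 67 was called in any of these fits, and the lowest limma adjusted p was 0.469.

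Without nbr RNAi array 5, 7 large-subunit and 7 small-subunit genes had an unadjusted limma p under 0.05 and a lower level in nbr RNAi, where 4.65% of all probe sets tested did. Among them mRpS26 had a log2 fold change of -0.25, mRpL39 -0.22, mRpL19 and mRpL51 -0.21, and mRpL46 -0.20, and the smallest was mRpS28 at -0.10. In that fit 4 of the 67 genes had groups that did not overlap (mRpL39, mRpS18B, mRpS16 and mRpL1), against 3.13% of all probe sets. That array was left out after its values had been seen in earlier work on these data, and none of the genes passed the adjusted threshold. Without control RNAi array 4 instead, 0 of the 67 had an unadjusted limma p under 0.05, against 3.31% of all probe sets tested. In that fit 36 of the 67 were negative (53.7%), against 44.4% of all.

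The genes of the mitochondrial ribosome varied together within the groups. With group means taken off, the median Pearson correlation over the 10 arrays was 0.77 among pairs of large-subunit genes, 0.74 among pairs of small-subunit genes without mRpS25 and 0.77 between the subunits. For mRpS25 the median was 0.85 with the other small-subunit genes and 0.87 with the large-subunit genes, and positive with all 67. All pairs of tested probe sets had a median of 0.025, and mRpS25 with all other tested probe sets 0.18. Without nbr RNAi array 5 and control RNAi array 4 the medians were 0.49 in the large subunit, 0.51 in the small one, 0.58 for mRpS25 with the small-subunit genes, 0.66 with the large-subunit genes and 0.018 over all pairs. These pairs share arrays and normalization, and with so few arrays single correlations are loose.

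**Figure D5:**
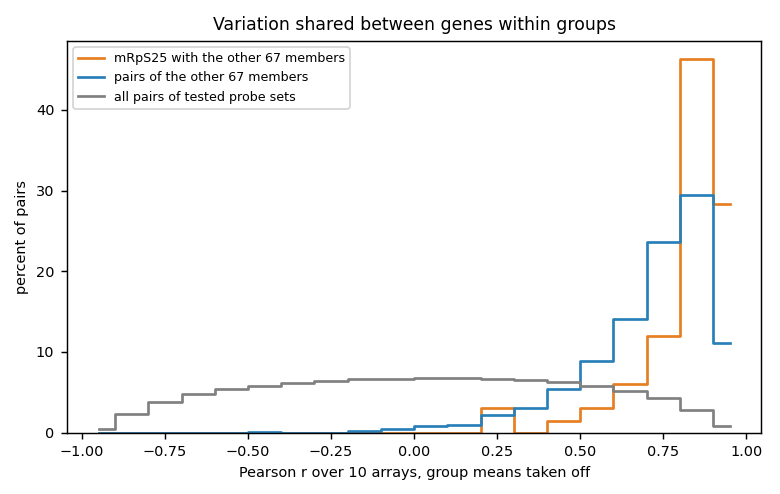
The lines give the percent of pairs by Pearson correlation over the 10 arrays with group means taken off, in bins of 0.1. Orange is mRpS25 with the other 67 genes, blue is pairs of those 67 genes, and grey is all pairs of tested probe sets. The members lie to the right of the grey line, with medians of 0.74 to 0.87 against 0.025.

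The members that followed the others least were mRpL45, with a median correlation of 0.26, and mRpS30, with 0.31, and those that followed them most were mRpL19, with 0.88, and mRpS18A, with 0.87. Over all tested probe sets of 1 symbol, the 5 most like mRpS25 within groups over the 10 arrays were mRpL14 (r = 0.98), 128up (0.98), CG34125 (0.98), COX5B (0.98) and holn1 (0.98). Their log2 fold changes between nbr RNAi and control RNAi were -0.040 for mRpL14, -0.015 for 128up, 0.0040 for CG34125, -0.0023 for COX5B, which encodes a subunit of cytochrome c oxidase, and 0.0069 for holn1. None was near that of mRpS25.

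The genomic spans of the members varied widely, with a median of 885 bp (468 to 13391 bp), against 2761 bp over the 6537 genes with a tested probe set and a RefSeq span. The within-group standard deviation had a median of 0.13 in the large subunit and 0.12 in the small one, near that of all probe sets tested, 0.12, and was 0.20 for mRpS25.

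Other genes of mitochondrial gene expression had 0 called. Over all probe sets tested 0.0259% were called, so a count of 0 in such short lists is near the background. Negative log2 fold changes were 47.1% of all probe sets tested. Of 11 mitochondrial translation factors 9 had negative log2 fold changes, with a median of -0.024, from -0.095 for mEFG1, an elongation factor, to 0.062 for mEFTu1, which brings aminoacyl-tRNA to the ribosome. Of 13 mitochondrial tRNA synthetases 8 were negative, with a median of -0.0078, from -0.18 for GluRS-m to 0.13 for CysRS-m. Of 10 genes for mitochondrial DNA upkeep and transcripts 8 were negative, with a median of -0.080, and TFAM, which packages mitochondrial DNA, gave -0.14, and mtSSB, which binds it single-stranded, -0.13. Of 74 tested genes of the cytosolic ribosome 61 were negative (82.4%), with a median of -0.018. The share of negative values was 79.1% over the 67 genes of the mitochondrial ribosome other than mRpS25, and the difference between these lists was not tested.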

How the data were processed

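Total RNA was extracted with TRIzol, amplified (Ovation Pico WTA), labelled with biotin and hybridised to 1 array per culture, per the labels' protocols. The deposited values are log2 levels per probe set. The submitters' processing notes name GCRMA and Partek, without versions or the order of steps. GCRMA includes quantile normalization, so a change of total RNA per cell does not show. The authors' deposited statistics table also holds, per the file headers, a signed fold change (a score below or above 0), a p-value and a q-value in percent, which were used only where the text names that table.

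All probe sets that are not controls and have a mean log2 level of at least 4 over the 10 arrays (7729 in all) were fitted with lmFit and eBayes of limma 3.58.1 (R 4.3.3) without covariates. Tests were 2-sided, with Benjamini-Hochberg adjustment over all of them. The fit was also run on simulated data with noise independent between probe sets. Real probe sets vary together, so that run does not vouch for the calls here. The number of arrays limits the precision. The 68 members were matched to RefSeq by accession. Other probe sets were matched by accession where possible, and 316 of them by symbol or synonym. The sources used here name no genome build for the arrays, so coordinates are left out, and no promoter, protein or motif was examined.

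The members, gene lists and tests were chosen with earlier results of these data known. Values on every array are given for nbr, mRpS25, members with an unadjusted p under 0.05 or groups that do not overlap, and the 4 highest and 4 lowest log2 fold changes of each subunit. Likeness to mRpS25 is Pearson's r with group means taken off. Alternatives were other filters, array weights, an unmoderated test, median centring, an adjusted p under 0.1, quantile normalization, robust eBayes with trend, 1 probe set per gene, the mean of a gene's probe sets, the replicate number as a block and each array left out.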

Additional observations from a re-analysis of the deposited data

Results flagged for a closer look

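In 19 of the 138 groups of 5 arrays examined (the members and nbr), 1 array stood far from the other 4 of its group by Dixon's test. Chance flags about 1 in 20 groups, and since the members vary together their flags are not separate events. The share flagged over all probe sets was not examined, so these flags are not read as particular to the members. In 16 of the 19, nbr RNAi array 5 was high. In the large subunit this array read 10.93 for mRpL4, 12.03 for mRpL30, 9.51 for mRpL48, 11.12 for mRpL10, 11.99 for mRpL39, 12.38 for mRpL1 and 11.03 for mRpL15. It also read 11.92 for mRpL44, 11.69 for mRpL41, 11.37 for mRpL11, 9.70 for mRpL16, 10.95 for mRpL32 and 9.83 for mRpL2. In the small subunit it read 11.64 for mRpS18A, 13.74 for mRpS21 and 12.61 for mRpS16. Control RNAi array 4 was high for mRpL2, at 9.87, and for mRpS18B, at 11.77. For mRpS18C, a dim probe set, nbr RNAi array 3 was low, at 4.79. No group of mRpS25 or nbr stood out in this way.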

How the results depend on the processing

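The count of called probe sets, 2, was 4 with median centring, with array weights and at an adjusted p under 0.1, 1 with the replicate block, 1 to 3 with each array left out and 1 without nbr RNAi array 5 and control RNAi array 3 together, an alternative chosen after seeing the data. The count of called small-subunit genes, 1 (mRpS25), was 0 without the filter on low signal, in the unmoderated test, with the replicate block and without those 2 arrays together, and 0 to 1 with each array left out. In those settings the log2 fold change of mRpS25 was 1.04, 1.04, 1.04 and 0.98, with limma adjusted p of 0.0836 without the filter, 0.423 with the block and 0.0582 without those 2 arrays, and 0.107 in the unmoderated test, and it ran from 0.96 to 1.12 with each array left out. The call was kept with the higher filter (adjusted p = 0.0128), quantile normalization (0.0138), median centring (0.0113), array weights (5.78e-04), the robust fit (0.00255) and 1 probe set per gene (0.0105). The difference of mRpS25 from the other small-subunit genes stayed between 1.05 and 1.15, no large-subunit gene was called under any of the 22 alternatives, and the log2 fold change of nbr stayed between -3.32 and -3.00. With array weights, where nbr RNAi array 5 had the lowest weight (0.154), the medians were -0.067 in the large subunit and -0.083 in the small one without mRpS25. Same-numbered arrays of the groups correlated between -0.47 and 0.18, and no nbr RNAi array correlated best with its own number, so the numbers were not taken to pair the arrays.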
